A study of Mus musculus with 16 samples.

Results

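Genes of the extracellular matrix, of the integrin and syndecan receptors that bind it and of the proteases that cut it were followed in the livers of mice fed the coffee diterpenes cafestol and kahweol. They were chosen by symbol: genes named Col, Lama, Lamb, Lamc, Itga, Itgb, Mmp, Timp, Adam, Fbln or Sdc followed by a digit, together with Fn1, Dcn, Bgn, Lum, Sparc, Reln, Des, Tagln, Vim, Nid1, Lox and Eln. The rule reads gene symbols alone, and was set with earlier results of these data known. The rule found 75 genes (81 probes) among 6734 genes named on the array, and Fn1 and Vim matched no probe with a single gene symbol. Of the 75 genes, 71 had values in at least 6 mice and were tested, and Itga5, Lama1, Col13a1 and Mmp16 were not.

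All mice were female APOE3Leiden mice, whose transgene encodes a human apolipoprotein E variant, and were backcrossed to C57BL6/JIco. The cafestol group (8 mice) ate diet W, a Western-type diet with 15 g fat and 0.25 g cholesterol per 100 g, with 0.04% cafestol and 0.02% kahweol added, for 4 weeks from 10 weeks of age. The control group (7 mice) ate diet W alone for as long. Poly(A) RNA of each cafestol liver was hybridised in Cy5 on 2 cDNA arrays of 9596 probes, 16 arrays in all, with control-diet liver RNA in Cy3 on every array.

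In the labels and the table used here no control mouse is named for the Cy3 RNA, so the log2 ratio was tested against 0, and the spread among control mice is not in that test. There were 0 arrays with the dyes swapped, so a dye effect of a gene would enter its ratio in every mouse. Which channel stands on top of the deposited ratio is not stated in those sources. Signs are therefore kept as deposited, and "negative" and "positive" name the side of 0, not a gain or loss of transcript. The values are ratios, so the label "liver" could not be checked against marker levels. No label says that the RNA of a mouse was extracted more than once, so the 2 arrays of a mouse count as 1 sample.

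The liver matrix is laid down mainly by stellate cells and portal fibroblasts, with contributions from the sinusoidal endothelium and the bile ducts. Fibrillar collagens form tensile fibres, while type IV collagen, laminins and nidogen make up basement membrane. Integrins and syndecans hold cells to this matrix, metalloproteinases cleave it, ADAM proteases mostly shed proteins from the cell surface, and TIMPs inhibit metalloproteinases. In a whole liver, fewer cells of a type and less RNA per cell cannot be told apart.

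Every array had a median of 0 and between 8094 and 9314 probes with a value. Mouse identifiers begin with SY (4 mice) or TP (4 mice), and the array titles hold the code c3z (7 arrays, SD of all values 0.173 to 0.208) or bl7 (9 arrays, SD 0.208 to 0.260). No label says what these codes and identifiers mean. TP mice had only bl7 arrays and SY mice only c3z arrays, except SY518Z with 1 of each. That mouse stood apart in the matrix genes: among the 36 negative ones described next it was the lowest mouse in 22 (61.1%), against 21.4% of 2119 features called negative in the whole table. Where mice tied for the lowest value the first in sample order was counted, so both shares depend on that order. Among the 22, SY518Z was tied in Fbln7, Itga6, Lamb1 and Mmp11. Results that rest on SY518Z are given with and without it. Values per mouse run in the order SY518Z, SY521RL, SY522ROB and SY524ROB+L, then TP4163, TP4168, TP4205 and TP4215.

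Matrix genes lay mostly on the negative side. Of the 71 tested, 36 (50.7%) were negative, 7 (9.86%) were positive and 28 did not pass (limma, Benjamini-Hochberg over all genes and unnamed probes, adjusted p under 0.05, n = 8 mice). Over all 8348 genes and unnamed probes 25.4% were negative and 18% positive, 43.4% in all. The median log2 ratio was -0.10 over the 71 genes and -0.02 over everything tested. The differences were small: the largest, for Nid1, was 1.41-fold, 0 of the 71 reached 1.5-fold, and 10 called genes lay nearer to 0 than 0.138, the smallest step of the deposited values. Of the 43 called, 19 had the same sign in every mouse. The untested genes had means of -0.11 (Itga5, 5 mice), 0.05 (Lama1, 5 mice), -0.10 (Col13a1, 4 mice) and -0.20 (Mmp16, 2 mice).

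The count depended on what was counted as error. Against a minimum difference of 1.2-fold, 0 of the 71 passed (limma treat; 3 at an unadjusted p under 0.05, all negative), against 1.47% of the whole table. With a standard error enlarged as if the Cy3 RNA pooled 7 control mice, each as variable as the cafestol mice, 20 were negative and 5 positive, against 12.9% and 8.76% of the whole table. In SY mice alone 12 of 73 were negative and 6 positive, shares near the 15.4% and 9.49% of the whole table. In TP mice alone 26 of 71 were negative and 7 positive, against 21.6% and 15.8%. On c3z arrays alone (4 mice) 15 of 73 were negative and on bl7 arrays alone (5 mice) 32 of 71, against 15.9% and 27.1% of the whole table. All 36 negative genes had a mean below 0, and all 7 positive ones a mean above 0, in SY mice alone and in TP mice alone. These genes were called on the mean of the same 8 mice, which favours a shared sign, so the agreement is no separate support. Without SY518Z the count was 30 negative, all among the 36, and 8 positive, against 21.7% and 16.7% of the whole table.

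**Figure D1:**
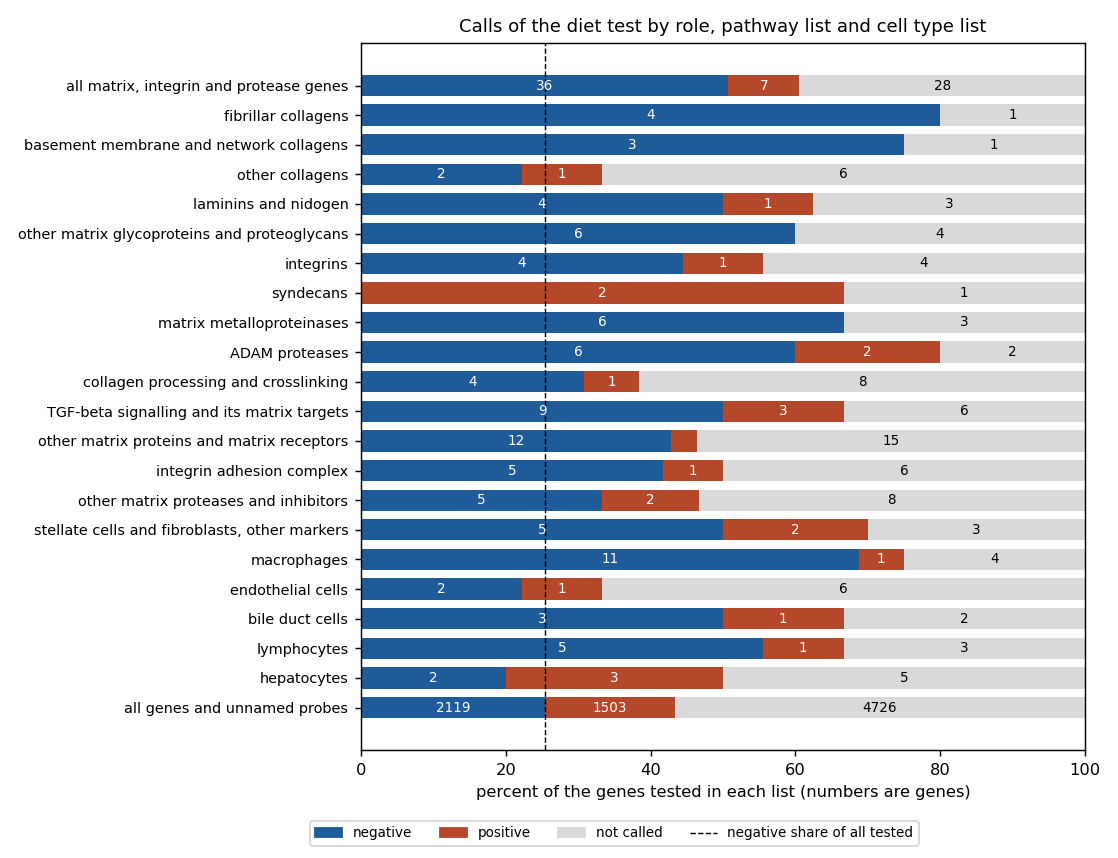
Percent of tested genes called negative, positive or not called by the diet test, for the matrix, integrin and protease genes by role, for the pathway and cell type lists and for all genes and unnamed probes (numbers are genes; the dashed line is the negative share of all tested). Of the matrix, integrin and protease genes 50.7% were negative, against 25.4% of everything tested, and syndecans were the role with 0 negative and 2 positive genes.

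The basement membrane held 3 of the 4 genes farthest from 0. They were nidogen 1 (Nid1, Entrez 18073), which links laminin to type IV collagen, and Col4a1 and Col4a2 (Entrez 12826 and 12827), which encode the chains of the common form of type IV collagen. Col4a1 and Col4a2 are neighbours read in opposite directions, and their promoter windows (250 bases before to 50 after the start, RefSeq, assembly GRCm38.p6) overlap by 78 bases, shown in capitals because the pair shares them. Their start sites lie 21 bases apart, at 11312826 and 11312805 of chromosome 8.
Col4a1, chr8:11312777-11313076, minus strand: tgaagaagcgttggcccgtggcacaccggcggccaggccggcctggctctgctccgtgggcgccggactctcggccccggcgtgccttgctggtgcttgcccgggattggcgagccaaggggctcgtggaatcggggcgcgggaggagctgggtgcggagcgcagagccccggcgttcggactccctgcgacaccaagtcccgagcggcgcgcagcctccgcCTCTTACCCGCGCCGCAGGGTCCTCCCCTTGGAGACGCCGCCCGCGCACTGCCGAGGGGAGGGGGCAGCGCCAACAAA
Col4a2, chr8:11312555-11312854, plus strand: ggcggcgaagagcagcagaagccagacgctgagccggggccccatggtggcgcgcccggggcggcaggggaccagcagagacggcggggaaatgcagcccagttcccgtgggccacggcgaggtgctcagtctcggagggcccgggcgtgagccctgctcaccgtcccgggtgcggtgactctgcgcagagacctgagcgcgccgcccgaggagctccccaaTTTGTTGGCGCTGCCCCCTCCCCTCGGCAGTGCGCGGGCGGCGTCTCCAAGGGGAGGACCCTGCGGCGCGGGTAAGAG
The shared stretch is 73.1% G or C and holds 1 GC box (GGGCGG or, on the other strand, CCGCCC), 0 CCAAT boxes (CCAAT or ATTGG) and 0 TATA boxes (TATAAA or TTTATA). The window of Nid1, shown as that of the gene farthest from 0, holds 1 GC box and 1 CCAAT box, in capitals.
Nid1, chr13:13437352-13437651, plus strand: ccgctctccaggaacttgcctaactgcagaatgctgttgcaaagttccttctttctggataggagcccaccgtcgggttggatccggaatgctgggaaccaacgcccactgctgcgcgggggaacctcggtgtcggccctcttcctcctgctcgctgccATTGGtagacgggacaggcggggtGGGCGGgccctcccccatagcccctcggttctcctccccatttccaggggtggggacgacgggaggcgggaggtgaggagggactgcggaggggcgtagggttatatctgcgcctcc

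Promoter windows were found for 46 of the 75 genes, 7 of them with several windows. Matches were counted by gene, in any of its windows, so genes with several windows had more chances than the single windows they stand beside. A GC box was found for 16 of 26 negative genes, 2 of 4 positive genes and 10 of 14 uncalled genes. It was in 35.7% of all 32851 windows. A CCAAT box was found for 15 of 26, 1 of 4 and 2 of 14 of these genes, against 37.4% of windows. A TATA box was found for 3 of 26, 0 of 4 and 2 of 14, against 13.6% of windows. These matches describe the letters of the windows, and no binding was measured.

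Nid1 had log2 ratios of -0.76, -0.26, -0.26 and -0.20 in SY mice, and -0.49, -0.93, -0.72 and -0.38 in TP mice. It was negative in 8 of 8 mice, with the 3 lowest values in TP4168, SY518Z and TP4205 and the other SY mice nearest to 0. The mean was -0.50 ± 0.27 (SD, n = 8; limma, adjusted p = 0.000335), and -0.46 ± 0.27 without SY518Z.

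Col4a1 had -0.81, -0.43, -0.26 and -0.32 in SY mice, and -0.43, -0.54, -0.49 and -0.38 in TP mice. Every mouse was at or below -0.26 and SY518Z lay below the rest, among which SY and TP mice overlapped. The mean was -0.46 ± 0.17 (a 1.37-fold difference; limma, adjusted p = 3.79e-05), and -0.41 ± 0.09 without SY518Z. Col4a2 had -0.67, -0.26, -0.14 and -0.07 in SY mice, and -0.26, -0.54, -0.43 and -0.38 in TP mice. Again all mice were negative and SY518Z was lowest, with the other SY mice at or above the highest TP mouse. The mean was -0.34 ± 0.20 (limma, adjusted p = 0.000695), and -0.30 ± 0.16 without SY518Z. Both genes share arrays and mice, so they are not independent samples of the diet. Col4a5, which encodes a chain of the type IV collagen of specialised basement membranes, averaged -0.22 ± 0.16 (adjusted p = 0.00385). Col18a1, the source of endostatin, had a mean of -0.13 ± 0.17 and did not pass (adjusted p = 0.0659). Basement membrane and network collagens thus counted 3 negative and 1 uncalled of 4, with a median of -0.28.

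Of 8 laminin and nidogen genes, 4 were negative, 3 did not pass and 1 was positive, with a median of -0.11. Beside Nid1, the negative ones were Lama5 (-0.27 ± 0.09, negative in 8 of 8 mice), the laminin alpha chain of many adult basement membranes, Lamb1 (-0.22 ± 0.13) and Lama2 (-0.16 ± 0.15), the alpha chain of muscle laminin. Lamb3, a chain of the epidermal laminin, was positive at 0.12 ± 0.07, in 8 of 8 mice. Lamb2 (-0.05 ± 0.14), Lama4 (0.03 ± 0.16) and Lamc1 (-0.02 ± 0.22, n = 7) did not pass. Adjusted p for the called genes ran up to 0.0157 (limma, Lama2).

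Of 5 fibrillar collagen genes, 4 were negative and 0 positive, with a median of -0.22. Col1a1 (Entrez 12842) and Col1a2 (Entrez 12843) encode the chains of type I collagen, the main collagen of scar tissue. Col1a1 had -0.80, -0.26, 0 and 0 in SY mice, and -0.32, -0.58, -0.13 and -0.37 in TP mice. SY518Z was lowest and SY522ROB and SY524ROB+L were at 0, so SY mice spanned the whole range and TP mice lay inside it. The mean was -0.31 ± 0.28 (limma, adjusted p = 0.00784), and -0.24 ± 0.21 without SY518Z. Col1a2 averaged -0.20 ± 0.20 (adjusted p = 0.0137), with a lowest value of -0.63, a median of -0.14 and a highest value of 0, and -0.14 ± 0.10 without SY518Z.

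Col5a2 (Entrez 12832), a chain of type V collagen, which joins type I fibrils, had -0.45, -0.24, -0.26 and -0.15 in SY mice, and -0.29, -0.30, -0.34 and -0.26 in TP mice. All 8 mice were negative, and TP mice lay within the range of SY mice. The mean was -0.29 ± 0.09 (limma, adjusted p = 4.68e-05). Its 2 probes gave -0.47 ± 0.11 and -0.10 ± 0.17, so the size depends on the probe. Col2a1, the main collagen of cartilage, averaged -0.22 ± 0.14 (adjusted p = 0.00204), and Col11a2 (-0.06 ± 0.08) did not pass.

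The remaining collagens were nearer to 0. Of 9 tested, 2 were negative (Col9a1 at -0.25 ± 0.17 and Col17a1, a hemidesmosome protein, at -0.11 ± 0.06), Col9a3 was positive (0.15 ± 0.14, adjusted p = 0.0172) and 6 did not pass, with a median of -0.07. These shares, 22.2% negative and 11.1% positive, lay below the 25.4% and 18% of everything tested. Col9a1 and Col9a3 encode chains of the same collagen, type IX, and Col9a2, the other chain, was at 0.00 ± 0.09. The uncalled genes farthest from 0 were Col6a1 (-0.09 ± 0.14), Col12a1 (-0.08 ± 0.11) and Col14a1 (-0.07 ± 0.11). The 2 probes of Col12a1 lay at -0.22 and 0.04, those of Col14a1 at -0.17 and 0.03 and those of Col23a1 at 0.12 and -0.09, so in these 3 genes the probe means had opposite signs. Over all 18 collagens tested, 9 were negative, 8 did not pass and 1 was positive.

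**Figure D2:**
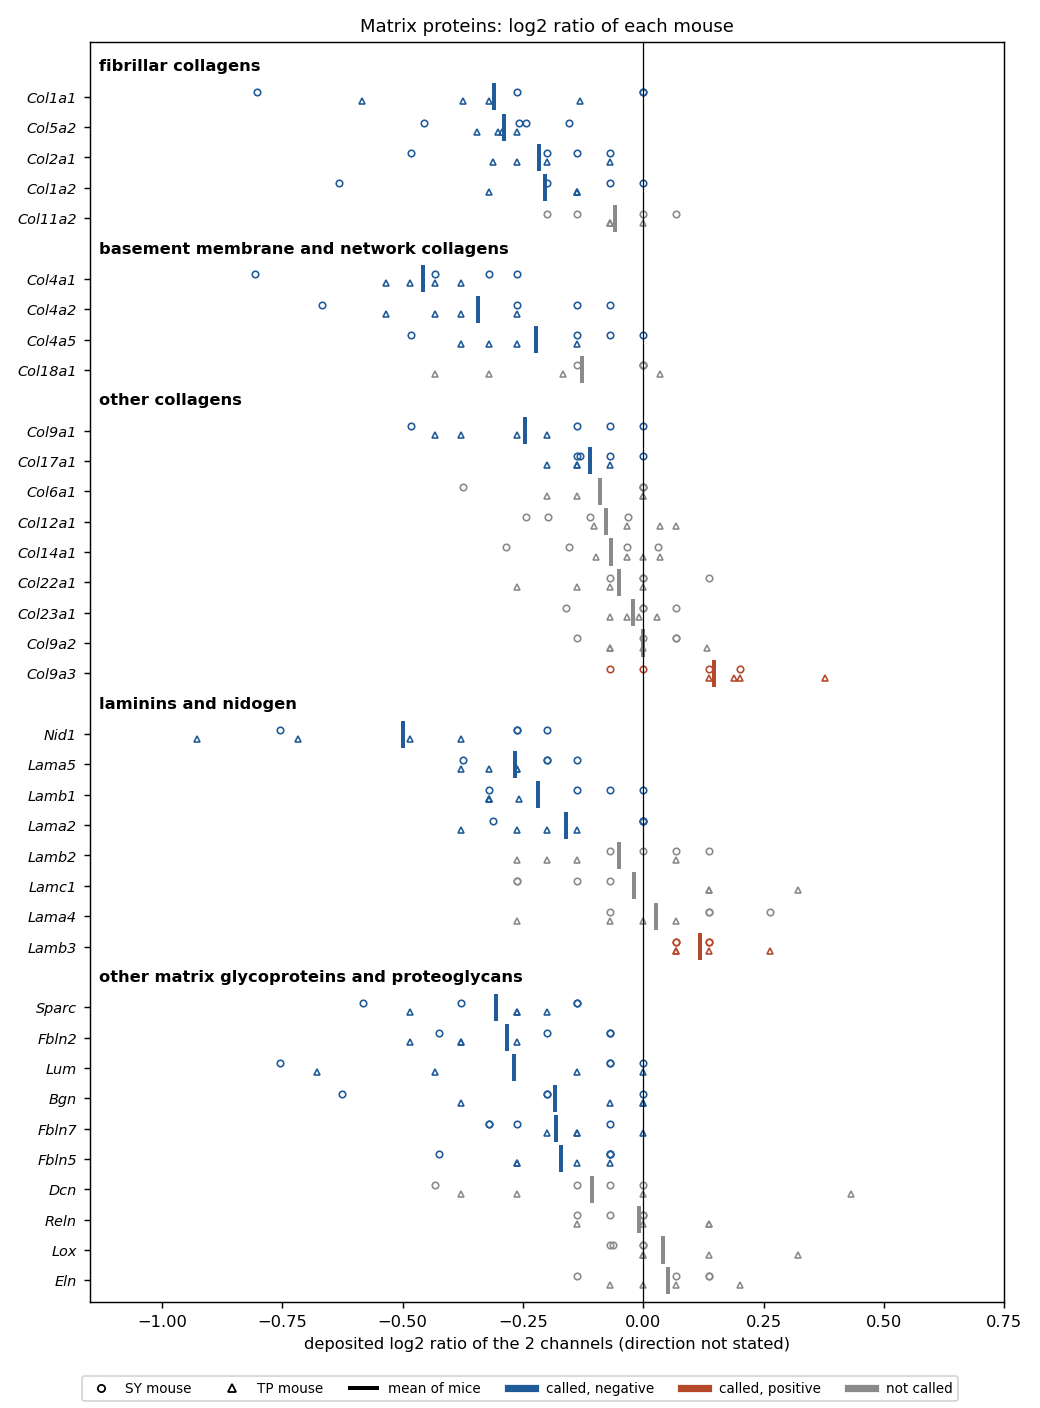
Deposited log2 ratio of each mouse (circles SY, triangles TP) and the mean of mice (bar) for collagens, laminins, nidogen and other matrix proteins, with genes called negative in blue, positive in red and uncalled in grey. Nid1 and Col4a1 had the lowest means (-0.50 and -0.46), and Col9a3 and Lamb3 were the positive genes.

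Of 10 other matrix glycoproteins and proteoglycans, 6 were negative and 0 positive, with a median of -0.18. Sparc (Entrez 20692), a collagen-binding protein made by stellate cells, had -0.58, -0.38, -0.14 and -0.14 in SY mice, and -0.26, -0.49, -0.20 and -0.26 in TP mice. It was negative in all 8 mice, with SY518Z and TP4168 lowest. The mean was -0.31 ± 0.16 (limma, adjusted p = 0.000492), and -0.27 ± 0.13 without SY518Z. Fbln2 (Entrez 14115), a fibulin of basement membranes and elastic fibres that portal fibroblasts make, had -0.42, -0.20, -0.07 and -0.07 in SY mice, and -0.26, -0.38, -0.38 and -0.49 in TP mice. All mice were negative, and the 3 SY mice other than SY518Z lay above every TP mouse. The mean was -0.28 ± 0.16 (adjusted p = 0.000733).

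The fibulins Fbln7 (-0.18 ± 0.12) and Fbln5 (-0.17 ± 0.13), which organises elastic fibres, were also negative. So were the small proteoglycans that bind collagen fibrils, lumican (Lum, -0.27 ± 0.31, adjusted p = 0.0263) and biglycan (Bgn, -0.18 ± 0.22, adjusted p = 0.037). Both varied widely between mice. Lum ran from -0.76 in SY518Z to 0, with a median of -0.10, and lost its call without SY518Z, TP4168 or TP4163 (limma, adjusted p 0.0658 to 0.0767). Bgn ran from -0.63 in SY518Z to 0 and lost its call without SY521RL, SY518Z, TP4168 or SY524ROB+L (adjusted p 0.0613 to 0.102), with a mean of -0.12 ± 0.14 without SY518Z. Decorin (Dcn), a close relative of biglycan, had a mean of -0.11 ± 0.27 and did not pass, but without TP4215, where it read 0.43, its mean was -0.18 and it passed (limma, adjusted p = 0.0212). Neither did Eln (0.05 ± 0.11), the elastin of elastic fibres, Lox (0.04 ± 0.13), which crosslinks collagen and elastin, or Reln.

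Of 9 integrin genes, 4 were negative, 4 did not pass and 1 was positive, with a median of -0.08. The negative ones were Itgb7 (-0.19 ± 0.13), a gut-homing integrin chain of lymphocytes, Itgb4 (-0.15 ± 0.05) and Itga6 (-0.12 ± 0.07), which pair as a laminin receptor of epithelia, and Itga2b (-0.10 ± 0.06), of platelets and megakaryocytes. Itga10, a chain of a collagen receptor, was positive at 0.15 ± 0.06 in 8 of 8 mice. Itgb1, the beta chain of most matrix-binding integrins, had a mean of 0.11 ± 0.16 and did not pass (adjusted p = 0.0767), while without SY518Z it averaged 0.14 ± 0.15 and passed (adjusted p = 0.0452). Itgb2 (-0.08 ± 0.11), the beta chain of leukocyte integrins, did not pass, but did without SY524ROB+L (mean -0.11, adjusted p = 0.0346). Itgb3 (0.03 ± 0.10) did not pass. Itgb1bp2, which met the symbol rule by its prefix only and encodes the muscle protein melusin, was negative (-0.21 ± 0.07).

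Syndecans, the transmembrane heparan sulfate proteoglycans, lay on the opposite side. Sdc1, the main syndecan of hepatocytes and a clearance receptor for remnant lipoproteins, had 0.26 in each SY mouse, and 0.26, 0.14, 0.07 and 0.14 in TP mice. All mice were positive, and the SY mice were at or above the highest TP mouse. The mean was 0.21 ± 0.08 (limma, adjusted p = 0.000337). Sdc4, a partner of integrins in focal adhesions, averaged 0.19 ± 0.07 (adjusted p = 0.000405) and was positive in 8 of 8 mice. Sdc2 (0.06 ± 0.08) did not pass. Among the cytoskeletal markers of mesenchymal cells, Tagln (-0.05 ± 0.11) and Des (-0.04 ± 0.07), the desmin of stellate and muscle cells, did not pass.

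Of 9 matrix metalloproteinase genes, 6 were negative, 0 were positive and 3 did not pass, with a median of -0.12. Mmp7, matrilysin, averaged -0.28 ± 0.25 (adjusted p = 0.00786), with a lowest value of -0.69 in SY518Z, a median of -0.32 and a highest value of 0.07, and -0.22 ± 0.21 without SY518Z. Mmp2, a gelatinase that stellate cells secrete, averaged -0.24 ± 0.16 and was negative in 8 of 8 mice, and Mmp14, the membrane protease that activates it, averaged -0.15 ± 0.08. Mmp11 (-0.12 ± 0.08), Mmp27 (-0.13 ± 0.12) and the macrophage elastase Mmp12 (-0.11 ± 0.12, adjusted p = 0.0439) were smaller. Mmp27 lost its call without TP4163 (limma, adjusted p = 0.0508). Mmp12 lost it without SY521RL, SY518Z, TP4168, SY524ROB+L or TP4163 (adjusted p 0.0748 to 0.112). The gelatinase Mmp9 (0.08 ± 0.16), Mmp17 (0.05 ± 0.11) and Mmp23 (0.00 ± 0.29) did not pass. Neither did Timp1, the single inhibitor measured (-0.05 ± 0.14, adjusted p = 0.383).

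Of 10 ADAM genes, 6 were negative and 2 positive. Adam15 (Entrez 11490), a widely expressed membrane protein, had the smallest SD of the 10 called genes farthest from 0. Its values were -0.37, -0.32, -0.26 and -0.38 in SY mice, and -0.38, -0.38, -0.43 and -0.32 in TP mice. Every mouse lay between -0.43 and -0.26, and the series overlapped. The mean was -0.36 ± 0.05 (limma, adjusted p = 3.71e-06). Adam11 (Entrez 11488), a member without protease activity known from the brain, had 0.37, 0.26, 0.54 and 0.26 in SY mice, and 0.26, 0.26, 0.20 and 0.26 in TP mice. It was positive in all mice, with SY522ROB highest. The mean was 0.30 ± 0.11 (adjusted p = 6.96e-05). Adam12 (Entrez 11489), a protease known from muscle and activated stellate cells, had 0.26, 0.26, 0.32 and 0.14 in SY mice, and 0.38, 0.26, 0.43 and 0.26 in TP mice. Again no mouse was negative, and the mean was 0.29 ± 0.09 (adjusted p = 4.88e-05).

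The other negative members of the family were Adam22 (-0.18 ± 0.12), Adam9 (-0.15 ± 0.07), the sperm protein Adam2 (-0.11 ± 0.10), Adam17 (-0.09 ± 0.09), which sheds tumour necrosis factor, and Adam8 (-0.09 ± 0.08), of leukocytes. Adam2, Adam17 and Adam8 had adjusted p of 0.0317, 0.0463 and 0.0469 (limma), and each lost its call without SY518Z (adjusted p 0.0651, 0.114 and 0.0981). Adam2 also lost it without SY524ROB+L or TP4205, Adam17 without SY521RL, SY524ROB+L, SY522ROB or TP4163, and Adam8 without any single TP mouse (highest adjusted p 0.107). Adam6b and Adam23 did not pass. Probes of such families can bind the transcripts of close relatives, which was not tested.

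**Figure D3:**
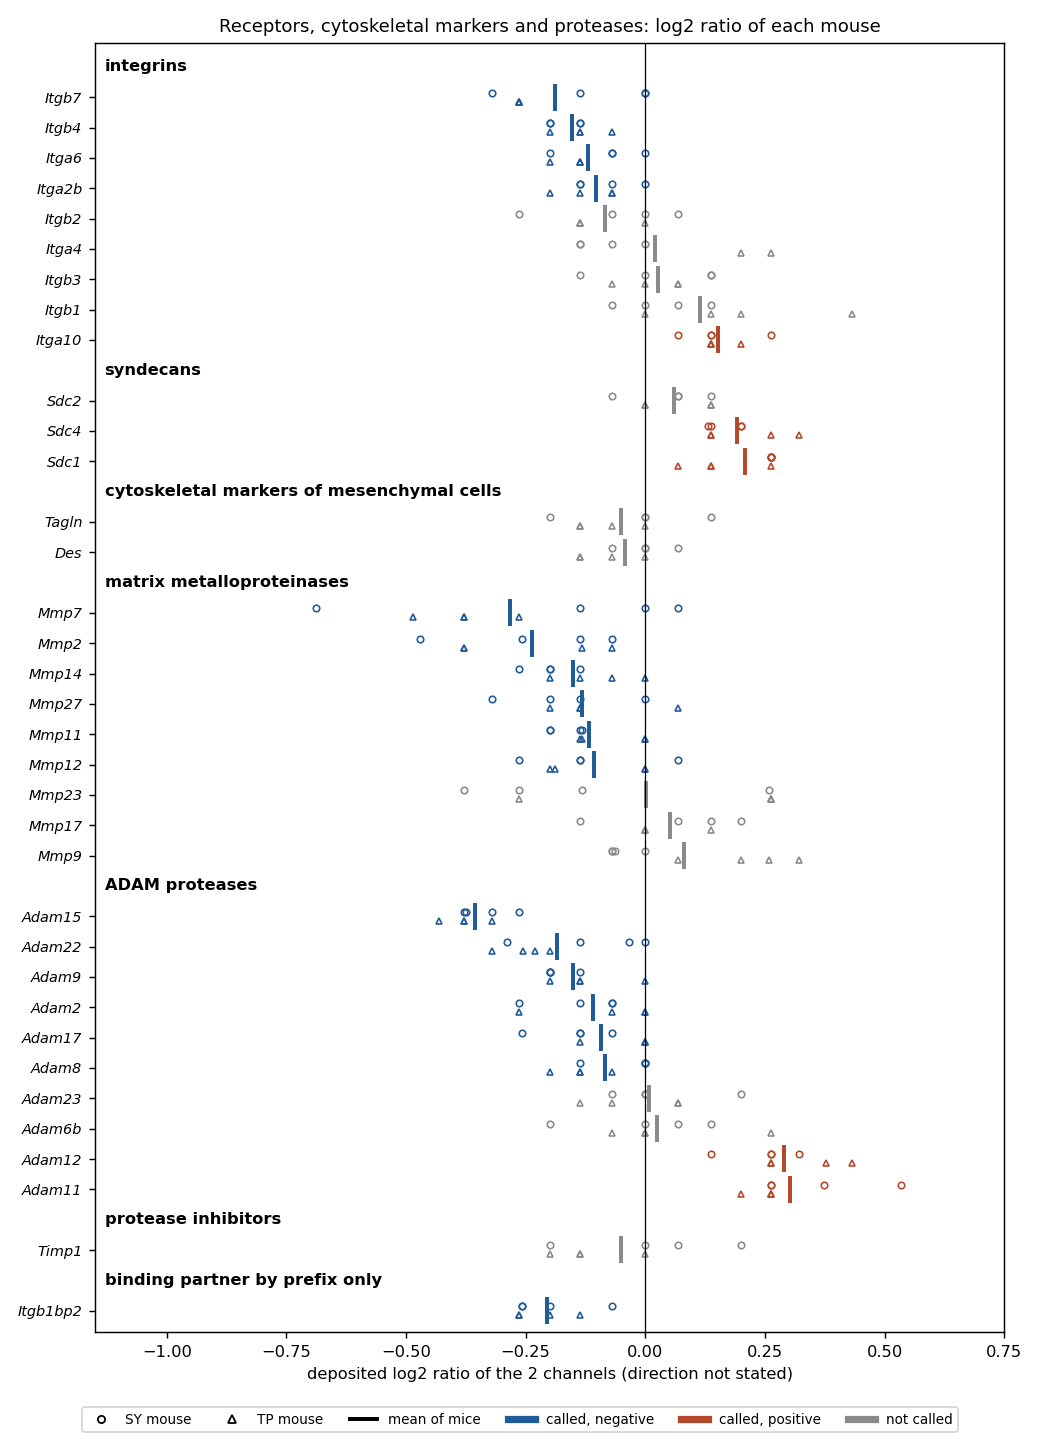
Deposited log2 ratio of each mouse (circles SY, triangles TP) and the mean of mice (bar) for integrins, syndecans, cytoskeletal markers, metalloproteinases, ADAM genes and Timp1, with genes called negative in blue, positive in red and uncalled in grey. Adam15 had the lowest mean (-0.36), and Adam11 and Adam12 the highest (0.30 and 0.29).

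SY518Z was hybridised on an array of each code, and its arrays differed. In 30 of the 36 negative genes its bl7 array was lower than its c3z array, in 2 it was higher and in 4 equal, with medians of -0.49 and -0.26. Over all features called negative with values on both arrays the bl7 array was lower in 1214 of 2112, higher in 292 and equal in 606 (medians -0.26 and -0.14). Mmp7 read -1.0 on the bl7 array and -0.38 on the c3z array, and Nid1 -0.93 and -0.58. Col1a1 read -0.93 and -0.68, and Col4a1 -0.85 and -0.77. Col1a2 read -0.58 and -0.68, the reverse order. Both arrays of SY518Z thus lay below 0 for each of these genes. Over the 71 genes tested, the median SD was 0.069 between arrays of a mouse and 0.117 between mice, and 61 genes had the larger SD between mice. Over everything tested the medians were 0.069 and 0.106, and 6649 of 8348 features had the larger SD between mice. The SD between arrays is that of single arrays, while the SD between mice is that of means of 2 arrays.

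**Figure D4:**
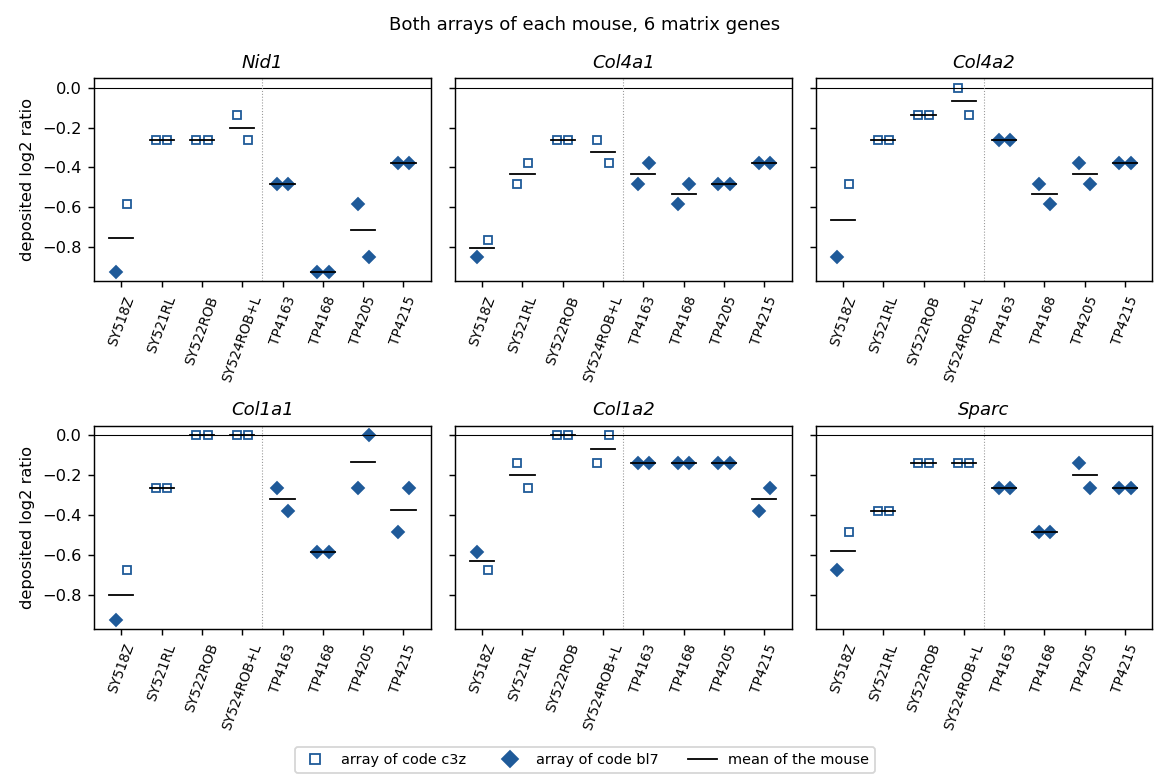
Deposited log2 ratio on both arrays of each mouse (open squares code c3z, filled diamonds code bl7, bar mean of the mouse) for 6 matrix genes. SY518Z has 1 array of each code, and both lie low: for Col1a1 they read -0.93 (bl7) and -0.68 (c3z) while SY522ROB and SY524ROB+L lie at 0.

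Whether SY and TP mice differed was tested directly for 70 of the genes. Of them 2 passed (limma, difference SY minus TP, adjusted p under 0.05; 5 at an unadjusted p under 0.05), against 4.96% of 8240 features. Lamc1, the gamma chain of most laminins, had -0.26, -0.07, -0.14 and -0.26 in SY mice, and 0.14, 0.14 and 0.32 in TP4168, TP4205 and TP4215, with no value in TP4163. In TP4168 and TP4205 only 1 of the 2 arrays had a value for Lamc1, each at 0.138, the smallest step. The series did not overlap for Lamc1, and the difference was -0.38 (adjusted p = 0.0201). Mmp9 had -0.06, -0.07, -0.07 and 0 in SY mice, and 0.07, 0.32, 0.26 and 0.20 in TP mice, and the difference was -0.26 (adjusted p = 0.0359). The means of the series did not overlap, but SY518Z read 0.14 on its bl7 array and -0.26 on its c3z array, and the first value lies within those of the TP mice, all on bl7 arrays (0 to 0.38). For Lamc1 both arrays of SY518Z read -0.26. Neither call held without SY521RL, SY522ROB, SY524ROB+L, TP4205 or TP4215, and that of Mmp9 also did not hold without TP4168 (limma, adjusted p 0.0514 to 0.0695 for Lamc1 and 0.0644 to 0.112 for Mmp9).

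Without SY518Z, with at least 2 mice per series in place of 3, 12 of 71 genes (16.9%) differed between SY and TP mice, a share near the 15.3% of the whole table. The difference was positive in 9 and negative in 3, against 8% and 7.33% of the whole table. The positive ones were Nid1 (0.38), Mmp7 (0.35), Fbln2 (0.26), Col9a1 (0.25), Col4a2 (0.25), Lama2 (0.24), Lamb1 (0.24), Itgb7 (0.22) and Adam22 (0.19). The negative ones were Lamc1 (-0.36), Mmp9 (-0.26) and Itga4 (-0.30), the last with values in 3 SY and 2 TP mice only. Among these 7 mice SY mice had c3z arrays and TP mice bl7 arrays throughout, so series and array code cannot be told apart.

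**Figure D5:**
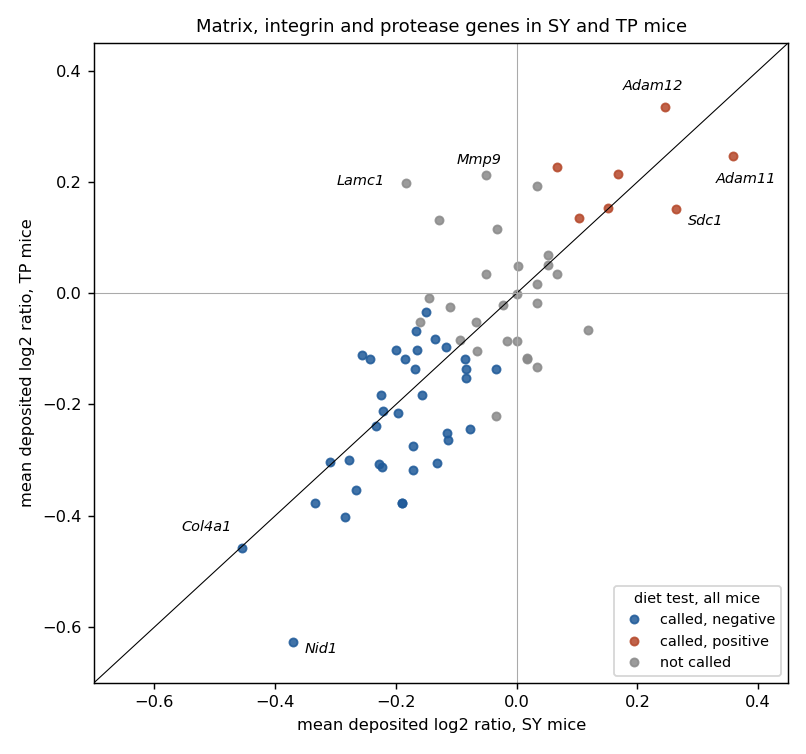
Mean deposited log2 ratio in SY mice (horizontal) and in TP mice (vertical) of each gene tested in both, with genes called negative in blue, positive in red and uncalled in grey, and the line of equal means. All called genes, which were chosen on the mean of these same mice, lie on the same side of 0 in both series. Lamc1 and Mmp9, the 2 genes that passed the test between series, lie below 0 in SY and above 0 in TP mice.

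Lists of genes around the matrix were described in the same way, without a test of the list. Over everything tested 25.4% were negative and 18% positive. The negative share was nearest to this for collagen processing (30.8%) and for other proteases and inhibitors (33.3%). It was 50% for TGF-beta signalling, 42.9% for other matrix proteins and receptors and 41.7% for the integrin adhesion complex. Of 13 genes of collagen processing, 4 were negative, 8 did not pass and 1 was positive (median -0.06). Called were the crosslinking enzyme Tgm2 (-0.49 ± 0.18), the prolyl hydroxylase subunits P4hb (-0.32 ± 0.17) and P4ha1 (-0.15 ± 0.10), Crtap (-0.17 ± 0.15) of the prolyl 3-hydroxylase complex and, on the positive side, Bmp1 (0.17 ± 0.06), which removes the end of procollagen. P4hb is also a general folding enzyme of the endoplasmic reticulum. Of 18 genes of TGF-beta signalling, which drives matrix synthesis in stellate cells, 9 were negative, 3 positive and 6 uncalled (median -0.10). The co-receptor Eng (-0.29 ± 0.07), Tgfbi (-0.27 ± 0.21), a secreted target, the ligand Tgfb2 (-0.24 ± 0.11) and Ltbp4 (-0.24 ± 0.09), which holds latent ligand in the matrix, were farthest from 0. Tgfb1, the main ligand in fibrosis, was at -0.01 ± 0.06 and did not pass.

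Of 28 other matrix proteins and receptors, 12 were negative, 15 did not pass and 1 was positive (median -0.08). The 4 farthest from 0 were negative: matrix Gla protein Mgp (-0.33 ± 0.18), the integrin chain Itgav (-0.29 ± 0.15), Mfap4 (-0.25 ± 0.05), a protein of elastic fibres, and the plasma adhesion protein vitronectin, Vtn (-0.23 ± 0.18), nearly level with Thbs3 and with tenascin C, Tnc, on the positive side (0.23 ± 0.07). Of 12 genes of the integrin adhesion complex, 5 were negative, 6 did not pass and 1 was positive (median -0.01). The tetraspanin Cd81 (-0.24 ± 0.08), the docking protein Bcar1 (-0.21 ± 0.11) and the actin regulator Vasp (-0.17 ± 0.08) were negative, and the tetraspanin Cd151 was positive (0.13 ± 0.09). Of 15 other proteases and inhibitors, 5 were negative, 2 were positive and 8 did not pass (median -0.04). The lysosomal cathepsins Ctsd (-0.51 ± 0.18) and Ctss (-0.38 ± 0.26) and basigin, Bsg (-0.44 ± 0.07), an inducer of metalloproteinases, were negative, while plasminogen, Plg, was positive (0.26 ± 0.13). Adjusted p for the called genes named from these lists was at most 0.0113 (limma).

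Markers of cell types were counted beside everything tested, of which 25.4% were negative and 18% positive. The negative share was 22.2% for endothelial and 20% for hepatocyte genes, below that of everything tested. It was 50% to 68.8% in the other cell type lists, which are short. Of 10 stellate cell and fibroblast genes outside the rule, 5 were negative, 2 were positive and 3 did not pass (median -0.08). Negative were Acta2 (-0.49 ± 0.28), Myl9 (-0.40 ± 0.22), Pdgfrb (-0.20 ± 0.07), Lrat (-0.12 ± 0.13) and Ecm1 (-0.10 ± 0.09). Positive were Cxcl12 (0.36 ± 0.17) and Cnn1 (0.09 ± 0.09), while Pdgfra (0.03 ± 0.08), Thy1 (-0.04 ± 0.08) and Pdlim3 (-0.05 ± 0.09) did not pass. Of 16 macrophage genes, 11 were negative and 1 was positive (median -0.18), of 6 bile duct genes 3 and 1 (median -0.17), of 9 lymphocyte genes 5 and 1 (median -0.10) and of 9 endothelial genes 2 and 1 (median -0.03). Of 10 hepatocyte genes, 2 were negative, 3 were positive and 5 did not pass (median 0.06). The median of the 36 negative matrix genes ran from -0.35 in SY518Z to -0.07 in SY522ROB over the mice. That of stellate cell genes ran from -0.14 to 0, of macrophage genes from -0.38 in TP4163 to 0.10 in TP4215, of bile duct genes from -0.39 in TP4168 to 0.07 in SY524ROB+L and of hepatocyte genes from -0.17 in SY522ROB to 0.23 in SY518Z. The part of cell numbers in the matrix result was not tested.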

How the data were processed

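Liver poly(A) RNA of 8 cafestol-fed mice was measured on 16 arrays with 2 colours, with control-diet RNA as the other channel, per the labels. The authors deposited log2 ratios. The sources used here do not give the normalization, background treatment, reason for blanks or direction. All 144660 deposited log2 values stood for ratios given to 1 decimal (tolerance 0.01 on the ratio times 10), 31.8% were 0, and none was rescaled.

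Genes were named from the platform annotation, with 0 symbols changed on updating through a RefSeq table (GRCm38.p6). Of 9596 probes, 7407 had 1 symbol, 437 several and 1752 none. Probes of a gene were averaged, then the 2 arrays of a mouse. The mean was tested against 0, and SY against TP mice, with limma 3.58.1 in R 4.3.3 (lmFit, eBayes, two-sided, Benjamini-Hochberg over all 8348 features with values in at least 6 mice, and over 8240 with at least 3 mice per series, or 2 where a mouse was left out). Levels and signal over background were not used here, and p covers the spread among cafestol mice alone.

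Members and gene lists were chosen with earlier results of these data known. Named with values were every called gene, with each mouse for the 10 farthest from 0, up to 3 uncalled genes per role, genes called between series and up to 4 called genes per pathway list. Values without SY518Z, cell type markers, each mouse of Sdc1, and P4ha1, Tnc and Tgfb1 were added after their values were seen.

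With 200 of 8347 features changed in simulated data, 83.6% of 1.2-fold and 100% of 1.5-fold changes were found by the diet test, with 7 calls among unchanged features, and the series test 19.4% and 85.1%, with 2. Neither a dye effect nor a spread of control mice was simulated. All other simulated features were centred on 0, while 43.4% of the real features were called. The rates found may therefore differ from those in the data. Alternatives covered centring, scaling, quantile normalization, probes, filters, single arrays, blocks, series, array codes, a minimum fold, control spread and the reading of the symbol rule. Figures were drawn with matplotlib 3.10.9.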

Additional observations from a re-analysis of the deposited data

Results flagged for a closer look

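Of the 71 genes tested, 2 had a single mouse set apart from the other 7 by Dixon's test, and chance sets apart about 1 in 20. Adam9 was at 0 in TP4215, while the other mice lay between -0.14 and -0.20. Lamb3 was at 0.26 in TP4205, while the others lay between 0.14 and 0.07.

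Lamc1 and Mmp9 differed between SY and TP mice by -0.38 and -0.26 (SY minus TP; limma, adjusted p = 0.0201 and 0.0359), with every SY mouse at or below 0 and every TP mouse with a value above it. For Lamc1 the values of TP4168 and TP4205 come from 1 array each. Series and array code overlap but for SY518Z, and their parts were not tested apart.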

How the results depend on the processing

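The 36 negative and 7 positive genes became 0 and 0 against a minimum of 1.2-fold, against 1.47% of the whole table in either direction. On c3z arrays alone (4 mice, chosen after seeing the data) they became 15 and 4 of 73, against 15.9% negative in the whole table. The positive share of the whole table was not counted for c3z arrays. The negative count was 20 of 71 with the spread of control mice added, against 12.9% of the whole table. In SY mice alone it was 12 of 73, a share near the 15.4% of the whole table. Leaving out single mice gave 30 to 36 negative and 7 to 8 positive genes. The 30 and the 8 came without SY518Z, against 21.7% and 16.7% of the whole table. Of the 43 called genes, 36 kept their call without each single mouse, 33 kept it also under every centring, scaling, probe, filter and array-averaging setting (series, array codes, minimum fold and control spread aside), and 0 changed sign in any alternative. A looser reading of the symbol rule, which adds 12 genes such as Itgav and Adamts members, gave 39 negative and 8 positive of 83. These shares were 47% and 9.64%, against 25.4% and 18% of everything tested. The 12 added genes alone had 3 negative (25%) and 1 positive (8.33%), with a median of 0.004, so their negative share was near that of everything tested. Scaling by the median absolute value changed nothing, because it was 0.138 on every array, and scaling by the SD (chosen after seeing the data) gave 35 and 7.

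The 2 of 70 genes that differed between SY and TP mice, against 4.96% of all features, became 1 with all arrays blocked by mouse and 4 with probes in place of genes. Leaving out single mice gave 0 to 12: 0 without SY521RL, SY522ROB, SY524ROB+L, TP4205 or TP4215, 1 without TP4168, 3 without TP4163 and 12 without SY518Z (16.9%, near the 15.3% of the whole table). The cause was not tested. No paired analysis was possible because every sample is in the same group and control mice have no samples of their own. The step of 0.138 and the number of mice limit the precision.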
